A study of Mus musculus with 14 samples.

Results

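Nuclear receptors are transcription factors that bind small lipophilic ligands or, for the orphan members, act without a known one, and coregulators are the proteins they recruit to activate or repress genes. Many of them bind DNA as heterodimers with a retinoid X receptor, at paired copies of the hexamer AGGTCA. In liver, receptors for fatty acids, oxysterols, bile acids, retinoids, thyroid hormone and glucocorticoids are known for control of lipid, bile acid and glucose metabolism. The genes described here were 38 named members of this group, 32 receptors and 6 coregulators. They were taken by symbol from the authors' deposited table and joined by Ensembl identifier to the counts, and they made up 38 of the 37681 genes listed. Of these, 35 were among the 17223 genes with enough counts to be tested between the diets.

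Liver polyadenylated RNA was sequenced from 14 mice, with 1 library for each mouse, to compare a high fat, high sucrose diet (HFHS, n = 7) with a low fat, low sucrose diet (LFLS, n = 7). No allele, drug or other treatment is named for either group, and the sources used here do not give strain, sex, age, feeding length or hour of collection. Sample titles start with 1 (LFLS 1 to 4 and HFHS 1 to 4) or 2 (LFLS 5 to 7 and HFHS 5 to 7). What that title number marks is not given, so it was treated as a grouping of unknown meaning, and the main diet differences are also given within each number.

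Depth ran from 18.2 M to 52.8 M counts per library (M, mega). LFLS 1 to 4 stood apart from all other libraries on the first principal component, which held 30.3% of the variance. The correlation between a gene's deviation in a library and its GC content ran from -0.41 in HFHS 7 to 0.59 in LFLS 1. On LFLS it was 0.22 to 0.59 in title number 1 and -0.37 to -0.25 in number 2. On HFHS it was -0.21 to 0.05 in number 1 and -0.41 to -0.11 in number 2. Within number 1 the diets thus differed in this correlation, and its part in the diet differences there was not tested. The 8 hepatocyte markers checked, albumin among them, summed to between 60105 and 120387 CPM, counts scaled to library size, in every library. Of 54 tested markers of hepatocytes and 7 other kinds of cell none was called between the diets by edgeR without a block, while 11 had an unadjusted p under 0.05, DESeq2 called 6 and limma voom 4. With the first number of the sample title as a block edgeR called 3 of them, the hepatocyte genes Cps1 (adjusted p = 0.00997) and Tat (adjusted p = 0.0315) lower and the stellate cell gene Hgf (adjusted p = 0.0417) higher. The 12 exocrine pancreas markers among them summed to between 18.6 and 1589 CPM on LFLS, highest in LFLS 2. On HFHS their sum ran from 16.0 to 426 CPM, highest in HFHS 5. The part of pancreatic RNA in the values of the members was not tested. In bulk RNA, fewer cells of a type and less RNA per cell cannot be told apart.

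The receptors of the bile acid, fatty acid and oxysterol pathways, with their partner Rxra, were the most abundant members per unit of transcript length. Levels between genes are compared as CPM per kilobase of exon (CPM per kb), with exon lengths from a later genome build than that of the counts. Nr1h4, the bile acid receptor FXR, stood highest with a mean of 106 ± 24.5 CPM per kb (SD over 14 libraries), followed by Rxra at 90.1 ± 24.6 and Ppara, the fatty acid receptor of fasting, at 77.0 ± 7.93. The libraries of these 3 genes overlapped with each other, and the lowest Ppara library, at 65.1 CPM per kb, lay above the highest library of the next gene.

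Nr1h3, the oxysterol receptor LXR alpha, followed at 38.5 ± 6.17 CPM per kb. Nr0b2, which encodes the repressor SHP and lacks a DNA-binding domain, stood at 30.1 ± 10.9 CPM per kb and the orphan receptor Nr2f6 at 28.2 ± 7.41. These 6 genes were at or above the 90.4th percentile of tested genes on this scale. The lowest Nr2f6 library held 19.2 CPM per kb, above the highest library of the next gene, the glucocorticoid receptor Nr3c1, at 18.0, while the lowest Nr0b2 library, at 15.9, lay within the Nr3c1 range. From Nr3c1 (14.0 CPM per kb) down to Ppard (1.30 CPM per kb), every neighbour in the order overlapped with the next, so no rank among these genes was clear of the one after it.

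The lowest Ppard library, at 0.965 CPM per kb, lay above the highest of the next gene, at 0.743. Nr4a2, an inducible orphan receptor, had a mean of 0.479 CPM per kb and Nr2f1, an orphan receptor of the COUP-TF family, 0.181. Vdr, the vitamin D receptor, had 1 to 8 counts per library, Pgr, the progesterone receptor, 1 to 6 and the inducible orphan receptor Nr4a3 2 to 47, where 1 was the lowest count in the table. These 3 did not pass the filter on low counts. At the other end of the CPM scale, 29 of the 38 members had a mean of at least 10 CPM and 5 of at least 100 CPM.

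**Figure D1:**
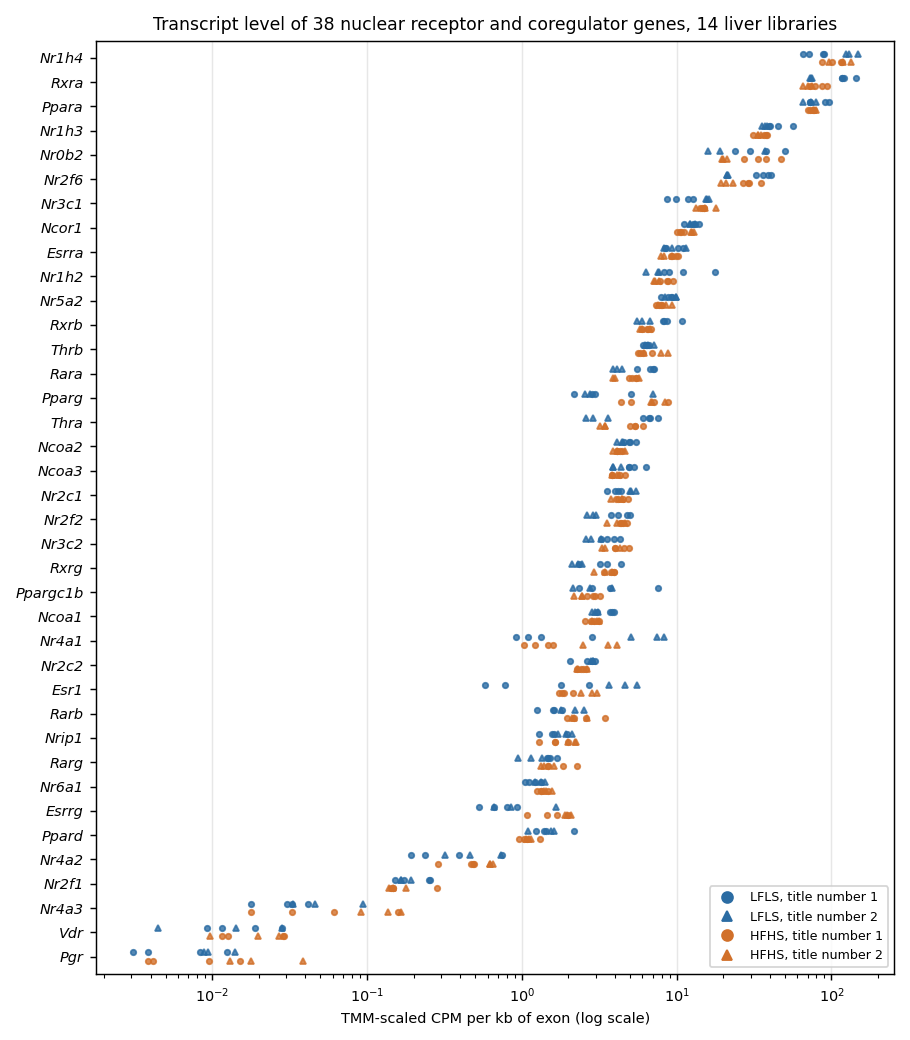
Level of each of the 38 genes in each of the 14 libraries, in TMM-scaled CPM per kb of exon on a log axis, ordered by mean; colour gives the diet and shape the title number. Nr1h4, Rxra and Ppara lie at the top, with means of 77.0 to 106 CPM per kb, and Vdr and Pgr at the bottom.

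Within receptor families 1 paralog usually made up most of the signal per kb. Rxra took 86.9 to 91.6% of the RXR signal over the 14 libraries and Ppara took 88.2 to 96.2% of the PPAR signal. Esrra took 80.0 to 94.1% of the summed signal of the 2 listed oestrogen-related receptors. Among the retinoic acid receptors Rara had 48.9 to 72.6%, and the 3 listed SRC-family coactivators, Ncoa1, Ncoa2 and Ncoa3, had 20.6 to 42.8% each. For the minor members of 3 families the median Pparg share was 3.51% on LFLS and 8.08% on HFHS, the median Esrrg share 7.80% and 16.4%, and the Rxrg share 1.84 to 3.27% on LFLS and 3.74 to 5.11% on HFHS, without overlap. These shares were chosen for mention after their values were seen and are given without a test.

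For most of the group no diet difference passed the test against the spread among mice. Esrrg was called higher on HFHS and 34 of the 35 tested members were not called, by the quasi-likelihood test of edgeR at an adjusted p of 0.05, adjusted by Benjamini and Hochberg's method over all tested genes. That is 1 of 35 beside 2.81% of all 17223 tested genes (1.37% higher and 1.44% lower). No member was called lower by this test, while 5 were lower at an unadjusted p under 0.05, DESeq2 called 1 lower and limma voom 7. At an unadjusted p under 0.05 stood 8 members, 3 higher and 5 lower, beside 19.6% of all tested genes (8.81% higher and 10.8% lower). The median log2 fold change of HFHS over LFLS was -0.14 over the members and -0.01 over all tested genes, and 22 of 35 members lay below 0, beside 51.3% of all genes. With offsets for GC content, an alternative added after seeing the data, the median was -0.05 over the members and -0.01 over all tested genes. In that fit 22 members lay below 0. In no member did the diets separate completely, beside 1.65% of all genes.

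The calls depended on whether the title number was in the fit. With the number as a block 4 members were called, Esrrg and Pparg higher and Ppard and Rxra lower, beside 8.94% of all tested genes (4.38% higher and 4.56% lower). In edgeR without a block, the 95% interval of the diet difference lay within a 2-fold change either way for 31 of 35 tested members. DESeq2 without a block called 3 members, Esrrg and Pparg higher and Ppard lower, beside 7.3% of all genes, and limma voom called 11, beside 19% of all genes. The members called by limma voom were Esrrg, Pparg, Rarb and Nr3c1 higher. Those it called lower were Ppard, Rxra, Rxrb, Nr2c2, Ncoa1, Ncoa2 and Ncoa3. With the 7 pairs of titles as a block 2 members were called, Esrrg and Pparg, beside 3.47% of all genes. In edgeR without a block, standard errors of the log2 fold change ran from 0.08 to 0.50, with a median of 0.14.

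**Figure D2:**
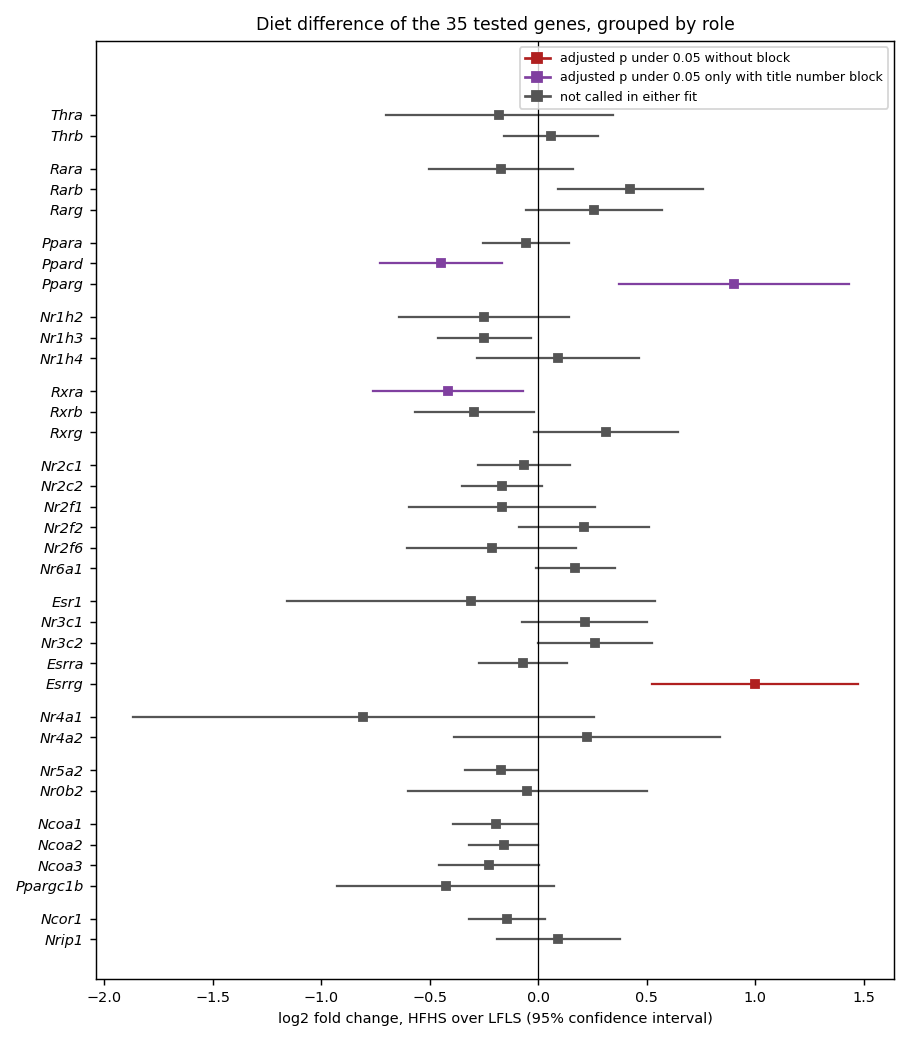
Log2 fold change of HFHS over LFLS with its 95% confidence interval for the 35 tested genes, grouped by role, from edgeR without a block; colour shows which had an adjusted p under 0.05 without the block (red) or only with it (purple). The interval of Esrrg lies between 0.53 and 1.48, and that of Nr4a1 is the widest.

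Esrrg (ENSMUSG00000026610) encodes the oestrogen-related receptor gamma, an orphan receptor active without a ligand that is known for control of mitochondrial genes and, in fasting liver, of gluconeogenic genes. Its level on LFLS ran from 3.27 through a median of 5.00 to 10.3 CPM and on HFHS from 6.70 through 11.8 to 12.9 CPM. All 7 HFHS libraries lay above the LFLS median and all but LFLS 6 of the LFLS libraries lay below the lowest HFHS library. The mean rose from 5.40 ± 2.30 to 10.8 ± 2.23 CPM (SD, n = 7 each), a log2 fold change of 1.00 ± 0.22 (SE) with an adjusted p of 0.0290 by edgeR's quasi-likelihood test.

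The log2 fold change of Esrrg was 1.11 within title number 1 (adjusted p = 0.0275 with edgeR) and 0.92 within number 2 (adjusted p = 0.147), with an interaction of -0.18 (adjusted p = 0.824). The block of title number gave an adjusted p of 0.00862. Leaving out any 1 of LFLS 2, LFLS 4, LFLS 5, LFLS 7, HFHS 2, HFHS 5, HFHS 6 or HFHS 7 ended the call, with an adjusted p of up to 0.0711 and a log2 fold change that stayed between 0.90 and 1.24 over all 14 such fits. In the authors' deposited table the log2 value of Esrrg was 0.91, in a header that does not name the groups compared, with an adjusted p of 0.27, and every other member had an adjusted p of 1.

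Its relative Esrra, a partner of the PGC coactivators in mitochondrial gene expression, was more abundant and had a log2 fold change of -0.07. The RefSeq table of promoters held 4 windows for Esrrg, each from 250 bases before to 50 bases after a transcript start, and none contained AGGTCA on either strand, the hexamer that 16.3% of all 32851 mouse windows contained. The first of them, chr1:187608756-187609055 on the plus strand of GRCm38.p6, is shown because Esrrg was the member called, and it has no capitals because no searched motif was found in it.
Esrrg promoter window: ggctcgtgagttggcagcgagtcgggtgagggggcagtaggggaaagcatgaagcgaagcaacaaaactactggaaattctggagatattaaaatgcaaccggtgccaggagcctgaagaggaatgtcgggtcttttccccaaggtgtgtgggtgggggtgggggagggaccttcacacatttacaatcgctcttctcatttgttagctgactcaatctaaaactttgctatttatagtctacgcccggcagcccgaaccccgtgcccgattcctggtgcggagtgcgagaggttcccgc

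Of 12 tested genes in a list of further nuclear receptors outside the 38, edgeR called 2 higher, beside 1.37% of all tested genes. At an unadjusted p under 0.05, 5 were higher, beside 8.81% of all tested genes. DESeq2 called 2 higher and limma voom 4. Among the 2 was Nr1h5, an FXR-like receptor gene, which rose by 0.53 ± 0.13 (SE) on the log2 scale (adjusted p = 0.0369 with edgeR). No gene of that list was called lower without the block, while 1 was lower at an unadjusted p under 0.05, DESeq2 called 1 and limma voom none. Hnf4a, chosen after its values were seen, had a log2 fold change of -0.51 ± 0.13 (adjusted p = 0.0518) and fell with the title number as a block (adjusted p = 0.0204).

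The 3 peroxisome proliferator-activated receptors, which sense fatty acids, differed in sign. Pparg (ENSMUSG00000000440), the receptor of adipocyte differentiation and of lipid storage in fatty liver, ran from 6.44 through a median of 8.43 to 20.9 CPM on LFLS and from 12.9 through 20.3 to 26.1 CPM on HFHS. All 7 HFHS libraries lay above the LFLS median, while LFLS 6 and LFLS 3 reached into the HFHS range. The log2 fold change was 0.90 ± 0.25 with an adjusted p of 0.0629 by edgeR's quasi-likelihood test, and 0.91 with an adjusted p of 0.0337 with the title number as a block. It was 0.97 within number 1 and 0.86 within number 2. Without LFLS 6 the value was 1.15 and Pparg was called, with an adjusted p of 0.00839 by edgeR.

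LFLS 6, the LFLS library with the highest Pparg, was also the one with the highest Esrrg. Adipocyte markers were checked beside Pparg since adipose tissue expresses it. Their sum over 5 genes ran from 1.93 to 10.1 CPM on LFLS and from 3.69 to 16.9 CPM on HFHS. Of the 5 markers 2 could be tested and none was called (edgeR; 1 was higher at an unadjusted p under 0.05, and DESeq2 and limma voom each called 1). Cfd, the secreted protease adipsin, had a mean of 4.08 CPM on LFLS and 10.1 on HFHS, with a log2 fold change of 1.28 ± 0.46 (adjusted p = 0.139 with edgeR). Adipoq, the adipocyte hormone adiponectin, had a mean of 0.457 CPM on LFLS and 0.322 on HFHS. Lep, the hormone leptin, was too low to be tested, with means of 0.0412 CPM on LFLS and 0.162 on HFHS. No marker of the list was at the lowest count in all libraries, and the part of adipocytes in the Pparg difference was not tested.

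Of the 8 tested genes listed as PPAR gamma targets 3 were called higher and none lower (edgeR; no gene was lower at an unadjusted p under 0.05, DESeq2 called none lower and limma voom 1). Over all tested genes 1.37% were called higher and 1.44% lower. The list's median log2 fold change was 1.09, and 2 of the 8 genes lay below 0. This list was chosen with earlier results of these data known, so its count and median are no test of PPAR gamma activity. The fatty acid translocase gene Cd36 rose by 1.55 ± 0.23 (adjusted p = 0.00388) and the triglyceride synthesis gene Mogat1 by 2.01 ± 0.35 (adjusted p = 0.00943), by edgeR. The lipid droplet gene Cidea, the third and chosen after its values were seen, rose by 3.11 ± 0.74 (adjusted p = 0.0354). Fabp4, another gene of the list that is known as a target in adipocytes, had a log2 fold change of 0.05. With the title number as a block Plin4, which encodes a lipid droplet protein, was also called higher (adjusted p = 0.0428 with edgeR).

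Pparg had 2 windows in the RefSeq table with an AGGTCA hexamer close to the start, 28 and 9 bases before it. The 33 members in the table had 53 windows, and 10 of these held the hexamer (18.9%, beside 16.3% of all windows), in 9 genes. They are shown with the hexamer in capitals because Pparg was called with the block, and both lie on the plus strand of GRCm38.p6, at chr6:115360894-115361193 and chr6:115362099-115362398.
Pparg promoter window, first start: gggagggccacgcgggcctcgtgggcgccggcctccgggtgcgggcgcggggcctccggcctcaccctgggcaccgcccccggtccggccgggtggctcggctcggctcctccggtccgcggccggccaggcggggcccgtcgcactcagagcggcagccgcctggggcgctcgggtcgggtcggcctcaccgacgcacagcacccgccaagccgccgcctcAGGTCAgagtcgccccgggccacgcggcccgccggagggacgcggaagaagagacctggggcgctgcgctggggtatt
Pparg promoter window, other start: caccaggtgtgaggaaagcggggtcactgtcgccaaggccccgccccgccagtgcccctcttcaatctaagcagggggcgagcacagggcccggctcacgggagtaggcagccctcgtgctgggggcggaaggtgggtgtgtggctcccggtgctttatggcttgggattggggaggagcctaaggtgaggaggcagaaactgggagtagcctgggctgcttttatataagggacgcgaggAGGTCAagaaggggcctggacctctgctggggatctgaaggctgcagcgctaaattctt

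Ppard (ENSMUSG00000002250), the broadly expressed PPAR delta, ran from 8.28 through a median of 10.8 to 16.4 CPM on LFLS and from 7.25 through 8.08 to 9.88 CPM on HFHS. Every LFLS library lay above the HFHS median and no HFHS library lay above the LFLS median. The log2 fold change was -0.45 ± 0.13 with an adjusted p of 0.0788 by edgeR, and -0.45 with an adjusted p of 0.0469 with the title number as a block. With offsets for GC content beside the block, an alternative added after seeing the data, Ppard was not called (-0.36, adjusted p = 0.0584 with edgeR). Within the numbers the values were -0.49 and -0.36. Without LFLS 5 the adjusted p was 0.0460 with edgeR.

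Ppara had a log2 fold change of -0.06 and the smallest spread of any listed gene on HFHS, a coefficient of variation (CV) of 4.02% against 14.0% on LFLS. Of 15 listed targets of PPAR alpha, among them genes of fatty acid oxidation, none was called without the block (edgeR; 2 were higher and 2 lower at an unadjusted p under 0.05, DESeq2 called 2 and limma voom 4). The 2 with the smallest p were Acadm, a dehydrogenase of mitochondrial beta oxidation, with a log2 fold change of 0.35 ± 0.10 (adjusted p = 0.0609 with edgeR), and the pantetheinase gene Vnn1 with 0.61 ± 0.20 (adjusted p = 0.111). With the title number as a block Acadm was called higher (adjusted p = 0.0151 with edgeR), the only one of the 15.

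**Figure D3:**
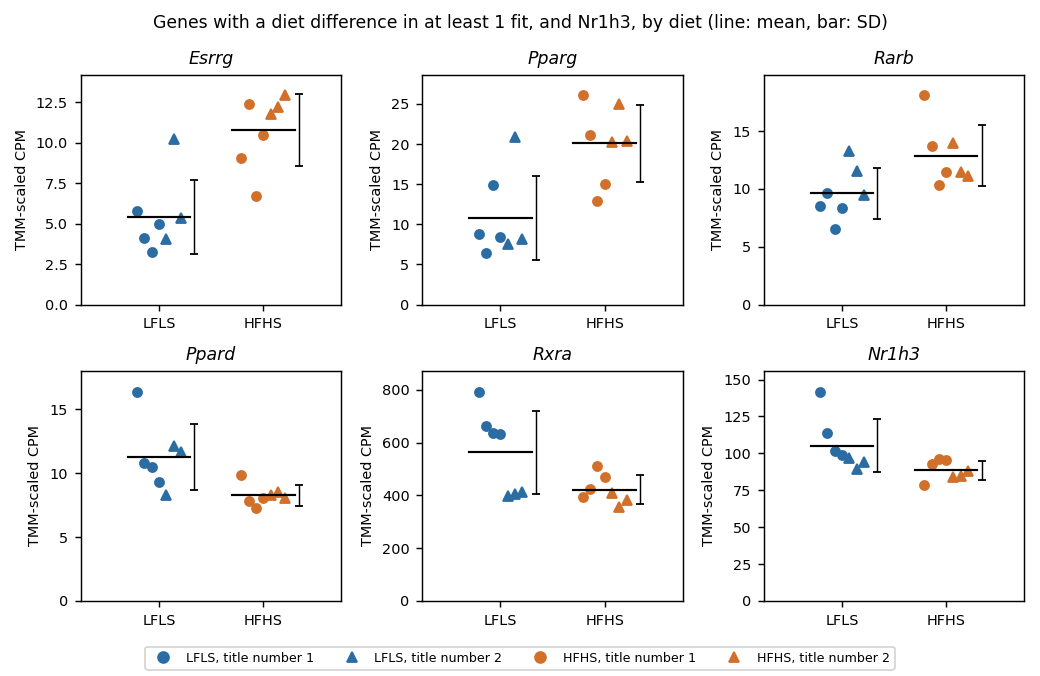
Level of 6 genes in TMM-scaled CPM by diet, 1 point per library with the shape giving the title number, a line at the mean and a bar of 1 SD. LFLS 6 stands above the other LFLS libraries for Esrrg (10.3 CPM) and Pparg (20.9 CPM), and for Rxra the LFLS libraries fall into those of 634 CPM or more and those of 411 CPM or less by title number.

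The retinoid X receptors are the dimer partners of most receptors above. Rxra (ENSMUSG00000015846) ran from 397 through a median of 634 to 792 CPM on LFLS and from 356 through 410 to 512 CPM on HFHS. In title number 1 the diets did not overlap, with 634 to 792 CPM on LFLS and 394 to 512 CPM on HFHS, while in number 2 the 3 LFLS libraries held 397 to 411 CPM and the 3 HFHS libraries 356 to 410. The log2 fold change was -0.42 ± 0.16 with an adjusted p of 0.174 by edgeR, and it was called lower with the title number as a block (-0.37, adjusted p = 0.0434). With offsets for GC content beside the block Rxra was not called, and the log2 fold change was -0.25 (adjusted p = 0.0547 with edgeR). Within number 1 it was -0.58 (adjusted p = 0.0346) and within number 2 -0.07 (adjusted p = 0.726), both by edgeR.

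The difference between those values was not called: the interaction of diet with title number for Rxra was 0.52 with an adjusted p of 0.0992 by edgeR. Rxrb, another RXR, ran from 22.0 through a median of 32.5 to 43.3 CPM on LFLS and from 22.9 through 25.7 to 27.0 CPM on HFHS, so the HFHS libraries lay within the LFLS range. The value for Rxrb was -0.29 ± 0.13 (adjusted p = 0.222 with edgeR), with -0.47 in number 1 (adjusted p = 0.0375) and 0.02 in number 2. With offsets for GC content and no block the Rxrb value was -0.15 (adjusted p = 0.164 with edgeR). Rxrg, the least abundant of the 3, had a log2 fold change of 0.31.

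Among the retinoic acid receptors, Rarb (ENSMUSG00000017491), itself a classical target of retinoic acid, ran from 6.57 through a median of 9.47 to 13.3 CPM on LFLS and from 10.4 through 11.5 to 18.1 CPM on HFHS. All HFHS libraries lay above the LFLS median and 2 LFLS libraries above the HFHS median. The log2 fold change was 0.43 ± 0.16 with an adjusted p of 0.152 by edgeR. It was 0.72 in title number 1 (adjusted p = 0.0493) and 0.10 in number 2 (adjusted p = 0.758), with an interaction of -0.61 (adjusted p = 0.201). HFHS 1 held the highest level, and without it the value was 0.32.

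HFHS 1 was also the library with the highest sum of 8 markers of stellate cells and fibroblasts, 695 CPM. Those sums ran from 259 to 337 CPM on LFLS and from 287 to 695 CPM on HFHS, and none of the 8 markers was called without the block (edgeR; 3 were higher at an unadjusted p under 0.05, DESeq2 called 1 and limma voom none). With the title number as a block Hgf, the hepatocyte growth factor gene, was called higher, with a log2 fold change of 0.42 (adjusted p = 0.0417 with edgeR). All 8 were above the lowest count in some library. Stellate cells store retinoids and are known to express Rarb, and their part in the Rarb values was not tested. Exons of Rarb overlap those of Top2b on the opposite strand, and the kit is not stated to keep strand, so reads of the overlap could be counted for either.

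Rarg ran from 4.04 through a median of 6.21 to 7.13 CPM on LFLS and from 5.64 through 6.31 to 9.72 CPM on HFHS, with broad overlap. Rarg had a log2 fold change of 0.26 ± 0.15 (adjusted p = 0.348 with edgeR), and Rara, the most abundant of the 3, had -0.17. Among 5 tested retinoic acid targets Cyp26a1, the retinoic acid hydroxylase, rose by 1.11 ± 0.29 (adjusted p = 0.0483 with edgeR), from 6.76 ± 3.85 to 14.7 ± 3.61 CPM (SD, n = 7 each). Dhrs3, a retinaldehyde reductase, had a log2 fold change of -0.15 ± 0.13, and the median over the 5 was -0.15.

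The promoters of Rarb and Cyp26a1 shared a motif that was rare among promoters. The direct repeat GTTCANNNNNAGTTCA, the form of the textbook retinoic acid response element of Rarb, was searched on both strands and found in 11 of 32851 windows (0.0335%). Rarb was the member among these 11, and Cyp26a1 was another. Since the pattern is the form known from Rarb, its match there was given in advance and is no test. The repeat began 52 bases before the start of Rarb, and for Cyp26a1 it lay on the reverse strand 32 bases before the start. Both windows are shown with the match in capitals, Rarb at chr14:16575427-16575726 on the minus strand and Cyp26a1 at chr19:37697558-37697857 on the plus strand, both of GRCm38.p6.
Rarb promoter window: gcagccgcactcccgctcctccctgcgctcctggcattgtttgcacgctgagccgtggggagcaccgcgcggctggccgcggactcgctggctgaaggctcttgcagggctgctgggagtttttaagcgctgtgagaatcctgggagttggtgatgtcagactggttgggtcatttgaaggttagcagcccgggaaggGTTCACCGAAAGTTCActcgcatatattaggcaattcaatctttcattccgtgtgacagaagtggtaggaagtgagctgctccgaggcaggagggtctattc
Cyp26a1 promoter window: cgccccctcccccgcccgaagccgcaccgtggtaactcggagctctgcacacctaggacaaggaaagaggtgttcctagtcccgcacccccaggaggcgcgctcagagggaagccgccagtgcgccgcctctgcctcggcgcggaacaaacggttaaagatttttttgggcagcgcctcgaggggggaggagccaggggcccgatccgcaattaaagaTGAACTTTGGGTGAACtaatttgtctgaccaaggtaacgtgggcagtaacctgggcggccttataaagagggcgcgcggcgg

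No member window held any of 5 other patterns, each searched on both strands. They were AGGTCANAGGTCA (0.0396% of all windows), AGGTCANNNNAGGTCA (0.0152%), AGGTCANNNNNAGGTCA, the inverted repeat AGGTCANTGACCT and the glucocorticoid receptor pattern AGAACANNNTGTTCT (each 0.00913%), and the first 4 contain the hexamer. The extended hexamer TCAAGGNCA, the form bound by oestrogen-related receptors, was found in 1.62% of all windows and in 1 member window, that of Rara. A missing match says only that these letters were not in the window. Ncoa3, Thra, Ncoa2, Ppargc1b and Nr3c1 had no window in the table.

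The oxysterol receptors did not pass the test. Nr1h3 ran from 89.3 through a median of 99.1 to 142 CPM on LFLS and from 78.6 through 87.8 to 96.0 CPM on HFHS. No HFHS library lay above the LFLS median and every LFLS library lay above the HFHS median. The log2 fold change was -0.25 ± 0.10 with an adjusted p of 0.195 by edgeR, and -0.31 and -0.12 within the title numbers. Nr1h2, LXR beta, ran from 21.3 through a median of 27.7 to 59.0 CPM on LFLS and from 23.8 through 26.2 to 31.9 CPM on HFHS, all of the latter within the LFLS range. Its log2 fold change was -0.25 ± 0.19 (adjusted p = 0.479 with edgeR), with the highest level in LFLS 1.

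None of 9 tested LXR targets was called (edgeR; none at an unadjusted p under 0.05, DESeq2 called none and limma voom 1). Abca1, the cholesterol exporter with the smallest p, had a log2 fold change of -0.18 ± 0.09 and Abcg8, an exporter of cholesterol into bile, -0.43 ± 0.25. Nr1h4, the bile acid receptor, had a log2 fold change of 0.09, with 0.43 in title number 1 and -0.21 in number 2. For the 7 tested targets of FXR and SHP no gene was called (edgeR; none at an unadjusted p under 0.05, DESeq2 called none and limma voom 1). Cyp7a1, the rate-limiting enzyme of bile acid synthesis, had a log2 fold change of 0.97 ± 0.55 (adjusted p = 0.347 with edgeR) and Slc27a5, a bile acid CoA ligase, -0.18 ± 0.10.

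SHP itself did not pass the test. Nr0b2 ran from 18.0 through a median of 33.9 to 56.9 CPM on LFLS and from 22.3 through 30.7 to 53.5 CPM on HFHS, with a log2 fold change of -0.05 ± 0.26 (adjusted p = 0.936 with edgeR). Nr5a2, the receptor LRH that works with SHP on bile acid genes, was among the most even genes of the list, from 46.9 through a median of 54.0 to 58.7 CPM on LFLS and from 43.4 through 46.5 to 54.7 CPM on HFHS. The ranges overlapped, although all 7 LFLS libraries lay above the HFHS median. On the log2 scale the difference was -0.17 ± 0.08 (adjusted p = 0.236 with edgeR), and it was called lower with offsets for GC content in the fit, an alternative added after seeing the data (-0.33, adjusted p = 0.0361).

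Thyroid hormone receptors did not pass the test between the diets. Thra ran from 12.0 through a median of 27.9 to 35.0 CPM on LFLS and from 14.8 through 23.1 to 27.8 CPM on HFHS, with a log2 fold change of -0.18 ± 0.25 (adjusted p = 0.724 with edgeR). Thrb, the main thyroid hormone receptor of liver, ran from 44.7 through a median of 48.0 to 52.9 CPM on LFLS and from 41.6 through 45.8 to 65.1 CPM on HFHS. Thrb had a log2 fold change of 0.06 ± 0.10 (adjusted p = 0.782 with edgeR), and it had the lowest CV of the list on LFLS at 5.30%. Of 6 tested targets of thyroid hormone 1 was called, Dio1, the liver deiodinase, which rose by 0.67 ± 0.14 (adjusted p = 0.0228 with edgeR). Over all tested genes edgeR called 1.37% higher and 1.44% lower. DESeq2 called 1 of the 6 higher and limma voom 3. This list too was chosen with earlier results of these data known. The transcription factor gene Klf9 had a log2 fold change of -0.37 ± 0.12 (adjusted p = 0.115).

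Of the steroid receptors and their relatives, 4 besides Esrrg were tested and none was called (edgeR; none at an unadjusted p under 0.05, DESeq2 called none and limma voom called Nr3c1 higher). Nr3c2, the mineralocorticoid receptor, ran from 16.8 through a median of 21.0 to 28.1 CPM on LFLS and from 21.3 through 25.7 to 31.7 CPM on HFHS, with all HFHS libraries above the LFLS median. Its log2 fold change was 0.26 ± 0.12 (adjusted p = 0.255 with edgeR). The glucocorticoid receptor Nr3c1 had a log2 fold change of 0.21, with 0.46 in title number 1 and -0.03 in number 2.

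None of 11 glucocorticoid targets was called without the block (edgeR; 2 were lower at an unadjusted p under 0.05, DESeq2 called 1 and limma voom none). With the title number as a block 2 were lower, the gluconeogenic enzyme Pck1 (adjusted p = 0.00537) and the tyrosine aminotransferase Tat (adjusted p = 0.0315). Their log2 fold changes without the block were -0.83 ± 0.26 and -0.92 ± 0.42. The oestrogen receptor Esr1 had the largest ratio of highest to lowest library of the tested members, 9.51, from 7.92 to 75.4 CPM on LFLS and from 23.7 to 41.9 CPM on HFHS. Its log2 fold change was -0.31 ± 0.40, with 0.39 in title number 1 and -0.72 in number 2.

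The orphan receptors of the NR2 and NR6 groups had log2 fold changes between -0.21 (Nr2f6) and 0.21 (Nr2f2), and none of the 6 tested was called (edgeR; none at an unadjusted p under 0.05, DESeq2 called none and limma voom called Nr2c2 lower). Nr6a1, a receptor best known from germ cells and early embryos, ran from 11.3 through a median of 13.2 to 15.3 CPM on LFLS and from 13.6 through 15.0 to 16.9 CPM on HFHS, with all HFHS libraries above the LFLS median. HFHS over LFLS was 0.17 ± 0.09 on the log2 scale (adjusted p = 0.283 with edgeR). Nr2c2, the testicular receptor TR4, ran from 30.4 through a median of 42.1 to 44.2 CPM on LFLS and from 33.8 through 36.0 to 39.1 CPM on HFHS. No HFHS library lay above the LFLS median, and the log2 fold change was -0.17 ± 0.09 (adjusted p = 0.307 with edgeR).

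The NR4A receptors, immediate early genes without a classical ligand pocket, included the tested member with the largest CV, Nr4a1, at 80.4% on LFLS and 55.2% on HFHS. Nr4a1 ran from 3.19 through a median of 10.0 to 29.1 CPM on LFLS and from 3.63 through 5.60 to 14.5 CPM on HFHS, and its log2 fold change of -0.81 ± 0.50 had an adjusted p of 0.387 by edgeR. Nr4a2 ran from 0.785 through a median of 1.60 to 3.02 CPM on LFLS and from 1.17 through 1.99 to 2.64 CPM on HFHS. For Nr4a2 the log2 fold change was 0.22 ± 0.29 (adjusted p = 0.701 with edgeR). Of 11 other immediate early genes none was called (edgeR; 2 were higher at an unadjusted p under 0.05, DESeq2 called 1 and limma voom none), and the smallest p values were those of the transcription factor gene Klf6, with 0.65 ± 0.21, and of Ier3, with 0.58 ± 0.24.

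All 4 coactivators tested had a log2 fold change below 0, from -0.16 to -0.43, and none was called (edgeR; none at an unadjusted p under 0.05, DESeq2 called none of them, and limma voom called Ncoa1, Ncoa2 and Ncoa3 lower). Ncoa2, which like Ncoa1 encodes a scaffold that brings histone acetyltransferases to receptors, ran from 64.6 through a median of 71.2 to 85.5 CPM on LFLS and from 60.3 through 64.7 to 72.1 CPM on HFHS. For Ncoa2 the log2 fold change was -0.16 ± 0.08 (adjusted p = 0.256 with edgeR). Ncoa1 ran from 24.3 through a median of 26.4 to 33.6 CPM on LFLS and from 22.1 through 25.0 to 27.1 CPM on HFHS, a log2 fold change of -0.20 ± 0.09 (adjusted p = 0.257 with edgeR). In both genes 6 of 7 LFLS libraries lay above the HFHS median. Ppargc1b, a PGC coactivator, had the widest interval of the coregulators, with LFLS 1 highest at 30.2 CPM.

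Ncor1, the corepressor that recruits histone deacetylase to unliganded receptors, ran from 143 through a median of 164 to 179 CPM on LFLS and from 129 through 143 to 165 CPM on HFHS. Its log2 fold change was -0.14 ± 0.08 (adjusted p = 0.353 with edgeR). Nrip1, the ligand-dependent corepressor RIP, ran from 14.8 through a median of 19.5 to 24.2 CPM on LFLS and from 14.9 through 22.7 to 25.5 CPM on HFHS, with a log2 fold change of 0.09 ± 0.13 (adjusted p = 0.735). The diets overlapped broadly in both corepressors.

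Of 25 tested coregulators outside the 38 genes, 3 were called lower and none higher by edgeR, with a median log2 fold change of -0.15. At an unadjusted p under 0.05, 8 were lower and none higher. DESeq2 called 6 lower and limma voom 7, and neither called one higher. Over all tested genes 1.44% were called lower and 1.37% higher, and 10.8% were lower at an unadjusted p under 0.05. The genes of this list were chosen with earlier results of these data known. Crebbp, a histone acetyltransferase used by many receptors, fell by 0.45 on the log2 scale (SE 0.10, adjusted p = 0.0331 with edgeR), from 24.0 to 36.2 CPM on LFLS to between 20.8 and 23.9 CPM on HFHS without overlap, with -0.64 in title number 1 and -0.12 in number 2. Pprc1, a relative of the PGC coactivators, fell by 0.56 (SE 0.14, adjusted p = 0.0395). The third was Ep300, the paralog of Crebbp, chosen after its values were seen. With the title number as a block Ncoa5 was also called lower (adjusted p = 0.0349 with edgeR).

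The title number went with more members than the diet did. With diet in the fit, 15 of the 35 tested members differed between the numbers, 5 higher and 10 lower in number 2, beside 28.8% of all tested genes (edgeR). In 3 members, Thra, Nr1h2 and Nr2f6, the numbers did not overlap, beside 5.81% of all genes. Thra held 23.1 to 35.0 CPM in the 8 libraries of number 1 and 12.0 to 16.6 CPM in the 6 of number 2, a log2 difference of -0.92 (adjusted p = 0.000244). Thra made up 45.2 to 53.9% of the thyroid hormone receptor signal per kb in number 1 and 28.0 to 35.8% in number 2.

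Exons of Thra overlap those of the circadian repressor gene Nr1d1 on the opposite strand. Nr1d1, chosen after its values were seen, held 57.7 to 242 CPM in number 1 and 6.04 to 21.3 CPM in number 2, a log2 difference of -2.66 (adjusted p = 0.000537 with edgeR). Counts of the 2 genes cannot be told apart where they overlap, and the part of Nr1d1 reads in the Thra counts was not tested. Nr2f6 was lower in number 2 by 0.66 and overlaps Ocel1 in the same way. In the other direction, Nr4a1 was higher in number 2 by 1.76 (adjusted p = 0.000833 with edgeR), Esr1 by 1.12 and Nr1h4 by 0.46.

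**Figure D4:**
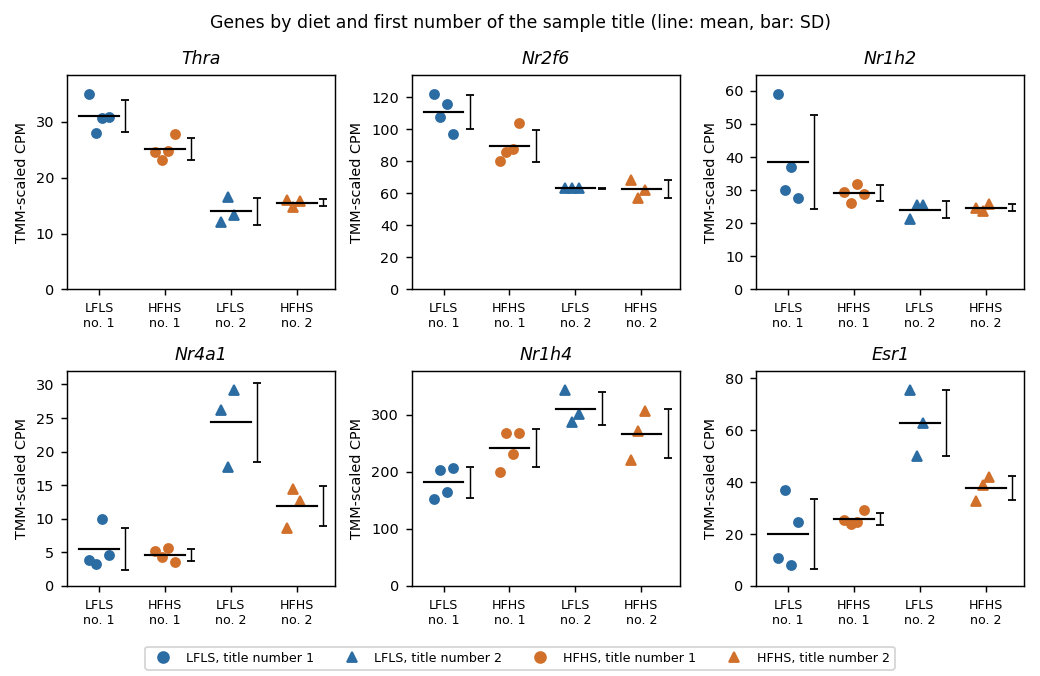
Level of 6 genes in TMM-scaled CPM by diet and title number, 1 point per library, with a line at the mean and a bar of 1 SD (n = 4 in number 1 and n = 3 in number 2). Thra lies between 23.1 and 35.0 CPM in number 1 and between 12.0 and 16.6 in number 2, and Nr4a1 reaches 29.1 CPM in number 2.

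Diet differences were compared between the title numbers. The sign was the same within both numbers for 20 of 35 members (57.1%), beside 52.4% of 16780 genes. No member was called for an interaction of diet with title number, beside 0.883% of all genes (edgeR, the tool run for it; 12 members had an unadjusted p under 0.05, with 8 more positive and 4 more negative in number 2). Number 1 alone gave 4 calls among the members, Esrrg and Rarb higher and Rxra and Rxrb lower, beside 8.49% of 17485 genes. Number 2 alone, with 3 mice per diet, gave none of 36, since Nr4a3 passed the filter there (edgeR; 6 higher and 4 lower at an unadjusted p under 0.05), beside 1.58% of 17010 genes.

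**Figure D5:**
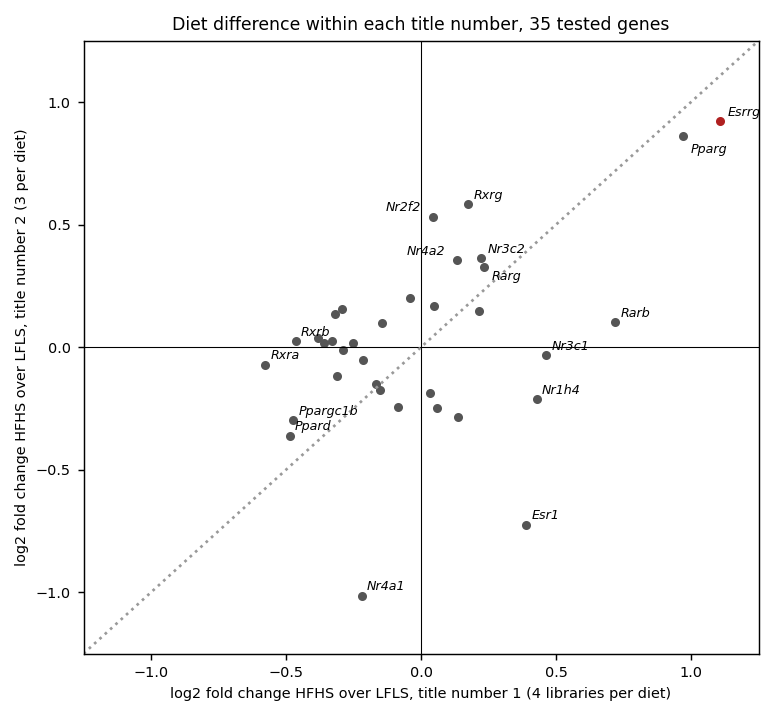
Log2 fold change of HFHS over LFLS within title number 1 (x axis, 4 libraries per diet) and within title number 2 (y axis, 3 per diet) for the 35 genes, with equality dotted and Esrrg in red. Esrrg and Pparg lie near the dotted line with values of 0.86 to 1.11, while Esr1, at 0.39 and -0.72, lies on opposite sides of 0.

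Like most tested genes, most members varied more among the LFLS mice. The CV over 7 mice was larger on LFLS for 29 of the 35 tested members, with a median of 23.0% on LFLS and 12.8% on HFHS, beside a larger CV on LFLS for 78.1% of all tested genes (70.0% without LFLS 1). LFLS 1 was the highest of the 14 libraries for 12 of the 35 members and the lowest for 7. It held the highest Nr1h2 (59.0 CPM), Nr1h3 (142 CPM), Ppard (16.4 CPM) and Rxra (792 CPM). Without LFLS 1 Esrrg remained the called member, and the log2 fold changes of the members named in this paragraph kept their sign, although that of Nr1h2 went from -0.25 to -0.04.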

How the data were processed

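Liver polyadenylated RNA of 14 mice was sequenced as 50 bp single reads, per the labels' protocols. CASAVA 1.8, Bowtie, TopHat and DESeq were used on build mm9, per the submitters' processing notes; for the counting tool and annotation release the entry is: not given in the sources used here. Whole-number counts, never below 1, made up the deposited table. The authors' deposited results table gave DESeq size-factor scaled means (signal), the authors' fold change (a ratio), its log2 value, and p-value columns of the authors, raw and adjusted, per the file headers. It served for symbols and for the authors' values of the members.

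Counts were tested with edgeR 4.0.16 (R 4.3.3): TMM scaling, the default filter by diet, a quasi-likelihood F test of HFHS against LFLS without covariates, and Benjamini-Hochberg adjustment over 17223 genes, called at 0.05. The scripts were tested on simulated data. P-values measure the spread between mice. The members, their roles and 18 gene lists were chosen with earlier results of these data known. Of 181 list symbols 178 matched. Some genes of these lists are not reported here. Full values are given for members called with or without the title number block and for the 2 smallest p in each of 11 roles. From each list up to 2 genes are named for the smallest p, and some lists have further genes named. Lep, Plin4, Ncoa5 and Fabp4 were named after their values were seen. Exon lengths and GC content came from GENCODE M21, and promoter windows from RefSeq on GRCm38.p6, a build other than that of the counts. The title number was checked as a pairing: the mean correlation of deviations from diet means was 0.129 for libraries of the same number on different diets and -0.134 for different numbers. The title pairs were not all correlated above 0.1 (-0.07 to 0.41) and were used only as an alternative. Other alternatives were DESeq2 1.42.0, voom with sample quality weights (limma 3.58.1), other scalings and filters, 1 subtracted from every count, blocks, each title number alone, each library left out, and, added after seeing the data, GC offsets.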

Additional observations from a re-analysis of the deposited data

Results flagged for a closer look

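Within each diet, the highest and lowest of the 7 libraries were compared with the rest for every tested member, by the gap to the nearest other library as a share of the whole range on the log2 scale (Dixon's test, critical value 0.568). Of 70 groups tested 3 passed, and chance alone passes about 1 in 20. Nr2c2 was lowest in LFLS 1, at 30.4 CPM against 39.3 in the next library, a share of 0.688. Nr2f1 was highest in HFHS 1, at 1.44 CPM against 0.915, a share of 0.641. Nr4a2 was lowest in HFHS 4, at 1.17 CPM against 1.92, a share of 0.607.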

How the results depend on the processing

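The call of Esrrg held under RLE size factors, library totals alone, both other filters, subtraction of 1, GC offsets, title number 1 alone, DESeq2 and limma voom, and was lost in title number 2 alone and without any of the 8 libraries named in the report. Over all 944 values of members under alternatives 874 kept their sign and side of the threshold, 25 gained a call, 9 (all Esrrg) lost one and 36 changed sign. The cause of these changes was not tested. Against 484 genes and 1 member called, 173 genes were called with no filter. Title number 1 alone gave 1484 genes and 4 members, title number 2 alone 269 genes and 0 members, DESeq2 1258 genes and 3 members and limma voom 3274 genes and 11 members. GC offsets called 2 members (Esrrg and Nr5a2). Leaving out 1 library gave 133 to 853 genes (fewest without HFHS 2, most without LFLS 6) and 0 to 2 members. With library totals alone 71.4% of called genes were higher, against 48.8%. The interaction had 0 members under every setting tried.

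With the title number as a replicate block 1540 genes and 4 members were called, and with GC offsets beside that block 1271 genes and 4 members (Esrrg, Pparg, Rarg, Nr5a2). The block of title pairs, which share the first number and the letters of the title, called 598 genes and 2 members, and 6 of 14 libraries correlated best with their own pair. The log2 fold change of Esr1 changed sign under the pair block, to 0.0295, and Esr1 was not called there (adjusted p = 0.966 with edgeR). No other member call changed with either block beyond those named here and in the report.

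Log2 fold changes that changed sign were all of members not called there. In title number 1 alone they were Thrb -0.0396, Nr2c1 0.14, Esr1 0.39, Esrra 0.0347 and Nr0b2 0.0593. In title number 2 alone they were Thra 0.15, Rara 0.14, Ppara 0.0985, Nr1h2 0.0376, Nr1h4 -0.21, Rxrb 0.0238, Nr3c1 -0.0320, Ncoa1 0.0249, Ncoa3 0.0162 and Ncor1 0.0172. With GC offsets they were Thrb -0.0762, Ppara 0.0107, Nr0b2 0.0932 and Nrip1 -0.0340, and with the block as well Thra 0.0052, Thrb -0.0754, Ppara 0.0099, Nr0b2 0.0555 and Nrip1 -0.0405. With limma voom they were Esr1 0.0366, Esrra 0.0026, Nr0b2 0.0765 and Nrip1 -0.00875. Over single libraries left out Nr0b2 ran from -0.20 to 0.11 and Thrb from -0.0145 to 0.10.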
